A study of Mus musculus with 6 samples.

Results

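The nuclear genes of the mitochondrial respiratory chain were examined complex by complex in sorted mouse hematopoietic progenitors. Members were all non-control probes whose gene name begins with Nduf, Sdha, Sdhb, Sdhc, Sdhd, Uqcr, Cyc1, Cox4 to Cox8 or Atp5. This rule took 139 probes for 96 of the 34821 gene names on the array. Of these genes, 38 belong by name to complex I, 4 to complex II, 9 to complex III, 18 to complex IV and 15 to complex V. The other 12 are assembly factors (Ndufaf and Sdhaf genes), Atp5s, Atp5sl and the pseudogene Atp5c1-ps. Total RNA came from freshly sorted LSK cells, a fraction of hematopoietic stem cells and early progenitors that carries Sca-1 and c-Kit and lacks lineage markers. There were 3 samples from wild-type mice (samples 1, 3 and 5) and 3 from NIKaly/aly mice (samples 2, 4 and 6), each on its own 1-colour Agilent array. NIKaly/aly mice carry on both copies of Map3k14 a point mutation that disables NIK, the kinase of the alternative NF-kB pathway, in every cell type. Strain, age and treatment are not stated in the labels, nor is it stated whether each sample is another animal. The p-values therefore cover only sample-to-sample spread, part of which may be technical.

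Complexes I and II take electrons from NADH and succinate, complex III passes them to cytochrome c, and complex IV hands them to oxygen. Complexes I, III and IV pump protons across the inner mitochondrial membrane, and complex V, the ATP synthase, uses that gradient to make ATP. Most subunits are encoded in the nucleus, a few in mitochondrial DNA, and quiescent stem cells are known for leaning less on this chain than their cycling progeny.

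All 6 arrays lay on 1 slide and were scanned once. Their 75th percentile signal ran from 47 to 224.7 and the share of spots well above background from 33.1% to 45.6%. The scanner's own quality summary asked for evaluation of wild type 1 and NIKaly/aly 6. The number of arrays limits the precision. Of 10 stem and LSK markers, 8 were well above background on all 6 arrays, Kit and Ly6a (Sca-1) among them, and Slamf1 was so on 2. Markers of sorted-out lineages were present too: all 11 neutrophil markers and 7 of 11 B cell markers were well above background on all 6 arrays. An expression probe does not read a point mutation, so Map3k14 did not check the labels. Its brighter probe read 0.73, 2.54 and 2.06 in the wild-type samples and 1.60, 2.53 and 2.14 in NIKaly/aly, with overlapping groups. Levels here and below are log2 processed signal relative to the array's 75th percentile.

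Promoters of these genes are known for sites of nuclear respiratory factor 1 (NRF-1) and of the ETS factor GABP. Both letter patterns were searched on both strands, as were a YY1 type, a CRE and a TATA pattern. RefSeq promoter entries (GRCm38.p6, 250 bases before to 50 after the start site) matched 78 of the 96 genes. The NRF-1 type letters (GCGCA, any base, GCGC) stood in 19 of 78 entries (24.4%), against 11.5% of tested genes with an entry and 5.19% of all entries. They were in 6 of 14 complex V genes, 2 of 3 in complex II, 7 of 33 in complex I, 1 of 5 in complex III and 1 of 13 in complex IV. The ETS type letters CCGGAAG stood in 19 of 78 (24.4%), against 20.3% of tested genes and 9.93% of all entries. The YY1 type letters, AAGATGG followed directly by CGGC, stood in 5 of 78 (6.41%, 4 of them in complex I), against 1.91% of tested genes and 0.755% of all entries. The CRE letters TGACGTCA stood in 4 of 78 (5.13%), against 3.69% of tested genes and 2.03% of all entries. The TATA letters TATAAA stood in 7 of 78 (8.97%), against 8.76% of tested genes and 15.7% of all entries. The NRF-1 and ETS type matches did not overlap in any member, and 4 members had both. Matches are letter matches, not shown binding sites, and no match says only that the letters are not in this window.

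The windows below show the NRF-1 type match (capitals, with 15 bases on each side, strand of the gene, 5′ to 3′) in genes of complexes I, II, IV and V, as the sequence these otherwise unlike genes share. They lie at chr4:123718260-123718299 (minus strand, Ndufs5), chr16:37654423-37654462 (minus, Ndufb4), chr13:74350271-74350310 (minus, Sdha), chr9:50603904-50603943 (minus, Sdhd), chr5:115349051-115349090 (minus, Cox6a1), chr15:102671065-102671104 (minus, Atp5g2) and chr5:108434425-108434464 (minus, Atp5k).
Ndufs5: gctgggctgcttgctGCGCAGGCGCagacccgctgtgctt
Ndufb4: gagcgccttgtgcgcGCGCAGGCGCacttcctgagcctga
Sdha: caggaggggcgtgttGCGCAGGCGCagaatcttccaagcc
Sdhd: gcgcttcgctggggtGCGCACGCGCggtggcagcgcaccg
Cox6a1: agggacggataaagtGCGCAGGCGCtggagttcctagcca
Atp5g2: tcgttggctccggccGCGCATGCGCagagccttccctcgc
Atp5k: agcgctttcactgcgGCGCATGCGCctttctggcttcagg

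In complex III the NRF-1 type match did not lie wholly before the start site. The ETS type match upstream of Uqcr11 is shown instead, beside that of Cox6b1, a complex IV gene. Capitals mark CCGGAAG or its reverse complement in windows at chr10:80406866-80406902 (minus strand) and chr7:30626121-30626157 (minus).
Uqcr11: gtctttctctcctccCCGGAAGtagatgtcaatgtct
Cox6b1: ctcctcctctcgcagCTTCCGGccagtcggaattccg

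The genotype comparison asks whether LSK cells without working NIK differ in the expression of this machinery. None of the 92 tested members passed the threshold between genotypes, and most intervals were too wide to show that a gene did not differ. A gene was tested where its probe stood well above background on 3 or more of the 6 arrays, and the probe with the highest mean stood for the gene. Member differences, NIKaly/aly minus wild type, ran from -0.81 (Cox4i2) to 0.61 (Uqcrq) around a median of 0.02, with 54 members reading higher and 38 lower. Over all 15682 tested genes the median was -0.01, with 7611 higher and 8071 lower. In limma 0 members passed an adjusted p of 0.05, as did 0 of all genes (0%), and the smallest adjusted p of a member was 0.99998. At an unadjusted p under 0.05 limma gave 0 members, against 208 of all tested genes (1.33%), and the smallest unadjusted p of a member was 0.188 for Cox4i2 (adjusted p = 1). For 0 members did the 3 samples of 1 genotype lie wholly above the 3 of the other, against 716 of all genes (4.57%).

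The comparison was wide. The median standard error of a member was 0.49 on the log2 scale, against 0.40 over all tested genes, and the 95% interval of the difference lay within 2-fold either way for 13 of 92 members, against 37.2% of all genes. Samples with consecutive numbers (1 and 2, 3 and 4, 5 and 6; 1 of each genotype) resembled each other, and with these pairs as a block the median standard error of a member was 0.13. The interval then lay within 2-fold for 90 of 92 members, against 78% of all genes, and the exceptions were Cox4i2 and Cox6a2. The labels do not state this pairing. It was taken up because the samples resembled each other in these data, so the narrower intervals follow in part from that choice. The medians of all 5 complexes were positive without wild type 1 (0.33 to 0.45) and negative without NIKaly/aly 2 (-0.41 to -0.23). With this block 0 members passed an adjusted p of 0.05 in limma, against 2 of all genes (0.0128%). At an unadjusted p under 0.05, 1 member was higher (Uqcrq; 3.26% of all genes were) and 2 were lower (Uqcrc1 and Cox6a2; 4.09% of all genes were). NIKaly/aly read higher in all 3 pairs for 9 members (13.8% of all genes) and lower in all 3 for 12 (16.2% of all genes), both below the share of all genes.

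**Figure D1:**
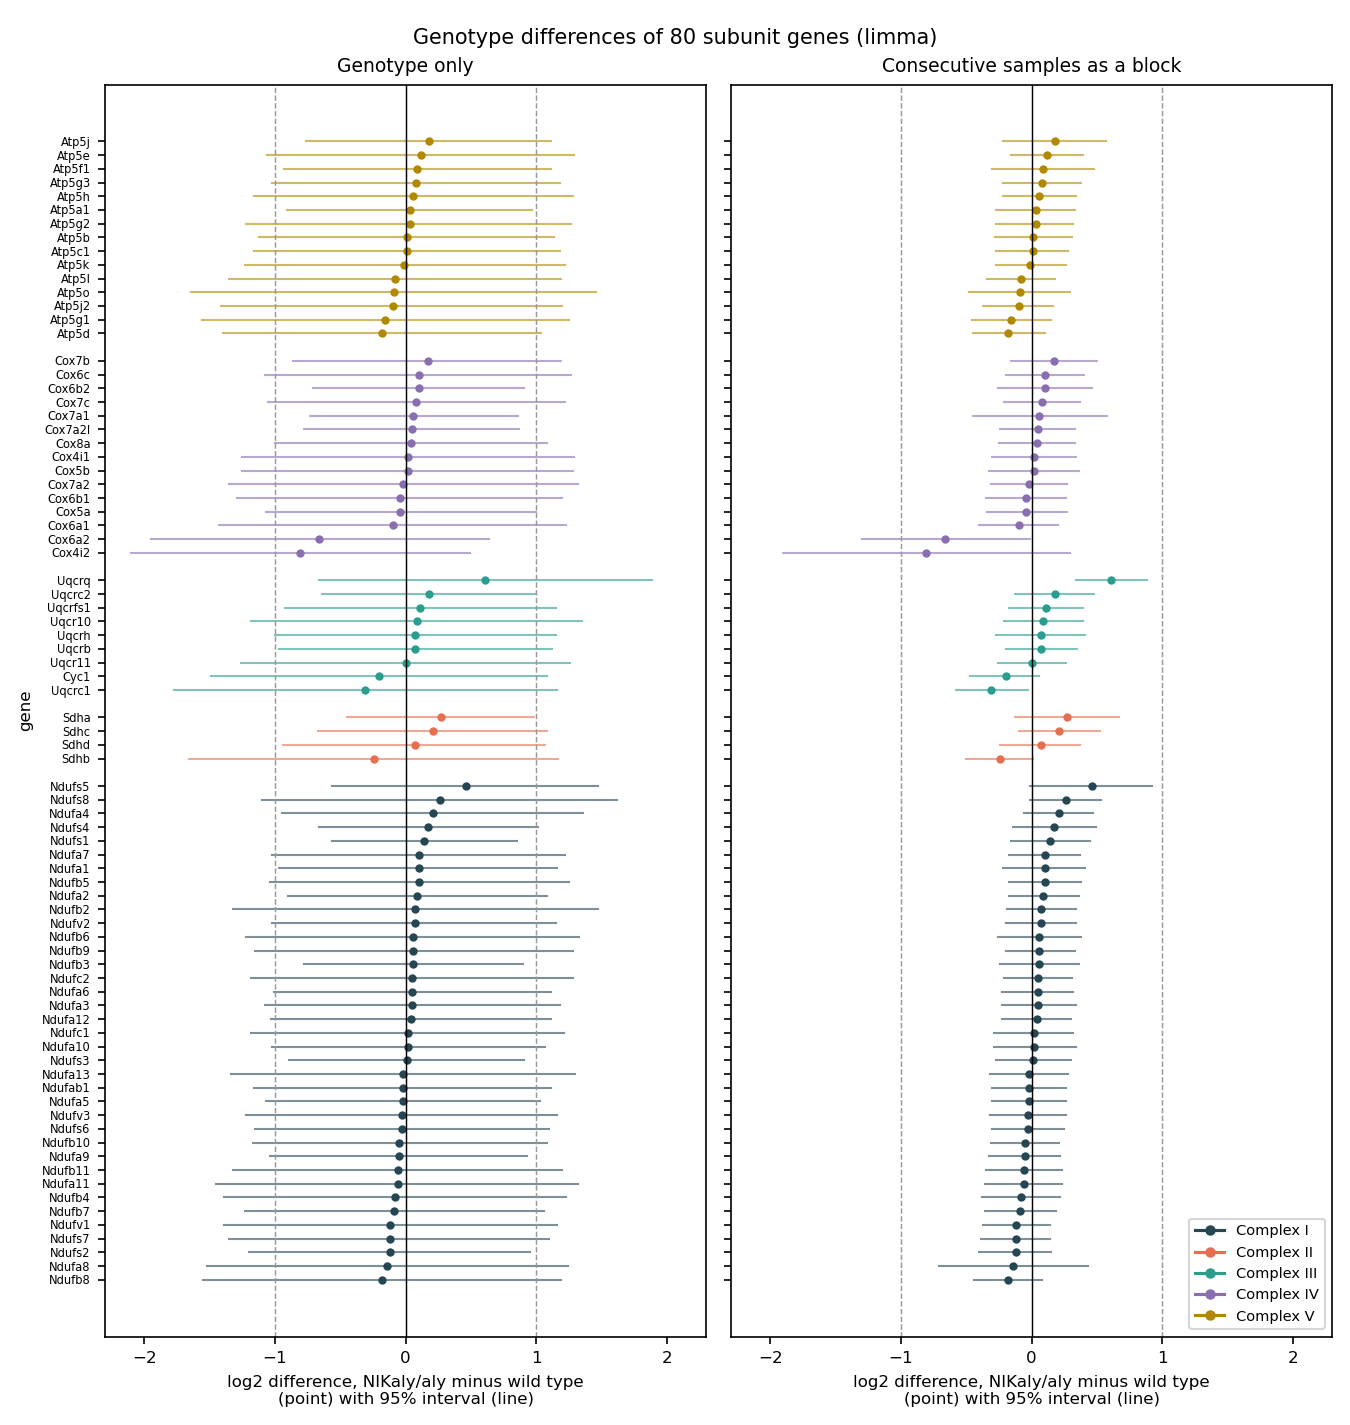
Log2 difference of each of the 80 tested subunit genes (points, NIKaly/aly minus wild type, x axis) with its 95% limma interval (lines), by complex, without (left) and with (right) consecutive samples as a block; dashed lines mark 2-fold. Every interval on the left spans 0; on the right those of Uqcrq, Uqcrc1 and Cox6a2 do not, and those of Cox4i2 and Cox6a2 pass the 2-fold line.

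Complex I, the NADH dehydrogenase, had 37 of its 38 genes tested. Their median difference was 0.02, from -0.18 to 0.46, with 21 reading higher and 16 lower. Within the pairs of samples 1 and 2, 3 and 4, and 5 and 6 the median was 0.10, 0.03 and 0.01. The accessory subunit Ndufs5 stood at the top of this range. It read 5.33, 3.94 and 4.79 in the wild-type samples (1, 3 and 5) and 5.76, 4.96 and 4.71 in the NIKaly/aly samples (2, 4 and 6). The groups overlapped, and wild type 3 was the lowest sample. The difference was 0.46 ± 0.44 (SE, n = 3 per genotype; limma, adjusted p = 1), and the pairs gave 0.43, 1.02 and -0.08. It was 0.09 without wild type replicate 3, 0.15 without NIKaly/aly replicate 2 and 0.78 without wild type replicate 1. Ndufs1, the largest subunit, which carries iron-sulfur clusters, differed by 0.14 ± 0.31, and Ndufs4, an accessory subunit needed for assembly, by 0.17 ± 0.36.

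For complex I genes with several probes, the probe chosen could set the sign of a small difference. Both Ndufb4 probes were tested and gave -0.08 and 0.25. The Ndufb2 probes gave -0.09 and 0.07, and the 3 Ndufb11 probes ran from -0.10 to 0.11. All 3 genes encode accessory subunits of the membrane arm. Ndufa4, named for complex I and now counted with complex IV, differed by 0.21 ± 0.50, and counting it in complex IV left the complex I median at 0.02 and made that of complex IV 0.03. Its paralog Ndufa4l2, known from hypoxic cells, was well above background on 0 of 6 arrays and was not tested.

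Complex II, succinate dehydrogenase, also serves the citric acid cycle, and all 4 of its genes were tested. Their median difference was 0.14, with 3 reading higher and 1 lower. Sdhb, the iron-sulfur subunit (probe at chr4:140535052-140535108 on mm9), read 7.32, 5.87 and 5.51 in the wild-type samples and 7.06, 5.62 and 5.28 in NIKaly/aly. The groups overlapped, samples 1 and 2 stood far above the others, and NIKaly/aly was the lower in each pair, by a near-equal step. The difference was -0.24 ± 0.61 (limma, adjusted p = 1), and it was 0.30 without wild type replicate 1 and -0.78 without NIKaly/aly replicate 2. The pairs gave -0.26, -0.24 and -0.23, and with the block the difference was -0.24 ± 0.11 (95% interval -0.50 to 0.01; limma, adjusted p = 0.696). A second Sdhb probe, at chr4:140529606-140529665, gave -0.18, -0.31 and -0.16 in the pairs.

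Sdha, the flavoprotein that oxidises succinate, read 4.20, 4.39 and 4.0 in the wild-type samples and 4.94, 4.30 and 4.15 in NIKaly/aly. NIKaly/aly 2 was the highest sample, the others overlapped, and the difference was 0.27 ± 0.31. The membrane anchors Sdhc and Sdhd differed by 0.21 ± 0.38 and 0.07 ± 0.43. Both read higher in NIKaly/aly in the pair of samples 1 and 2, and their other pairs ran from -0.12 to 0.35.

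Complex III is the cytochrome bc1 complex. All 9 of its genes were tested, the median difference was 0.07 from -0.31 (Uqcrc1) to 0.61 (Uqcrq), and 6 read higher and 3 lower. The median level of the 9 genes was 6.61, 5.24 and 5.23 in the wild-type samples and 6.53, 5.02 and 4.92 in NIKaly/aly. Its mean difference was -0.20 (within-genotype SD 0.85), so the sign for this complex depended on the summary. Uqcrq, a small subunit next to cytochrome b (probe at chr11:53242451-53242510 on mm9), read 7.29, 5.97 and 5.84 in the wild-type samples and 7.94, 6.47 and 6.53 in NIKaly/aly. Within each pair NIKaly/aly was the higher, but wild type 1 lay above NIKaly/aly 4 and 6, so the groups overlapped. The difference was 0.61 ± 0.55 (limma, adjusted p = 1), and it was 1.07 without wild type replicate 1 and 0.13 without NIKaly/aly replicate 2. The pairs gave 0.65, 0.50 and 0.68, and with the block the difference was 0.61 ± 0.11 (95% interval 0.34 to 0.88; limma, adjusted p = 0.161). Of all tested genes, 89 (0.568%) had a p as small or smaller in that fit. A second Uqcrq probe, at chr11:53242551-53242610, was higher in NIKaly/aly in each pair too, by 0.89, 0.41 and 0.16.

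Uqcrc1, a core subunit on the matrix side, read 5.90, 4.14 and 3.94 in the wild-type samples and 5.45, 3.85 and 3.77 in NIKaly/aly. Its direction was opposite to that of Uqcrq in every pair. The difference was -0.31 ± 0.64 (limma, adjusted p = 1), or 0.32 without wild type replicate 1 and -0.85 without NIKaly/aly replicate 2. The pairs gave -0.45, -0.29 and -0.17, and with the block limma gave a 95% interval of -0.58 to -0.03 and adjusted p = 0.623. Cyc1, the heme-bearing cytochrome c1, differed by -0.20 ± 0.56 and was also lower in each pair, by -0.09, -0.22 and -0.31. It was 0.26 without wild type replicate 1 and -0.72 without NIKaly/aly replicate 2. The Rieske iron-sulfur protein Uqcrfs1 differed by 0.11 ± 0.45 and the core subunit Uqcrc2 by 0.18 ± 0.36. The subunits of this complex thus did not share a direction.

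**Figure D2:**
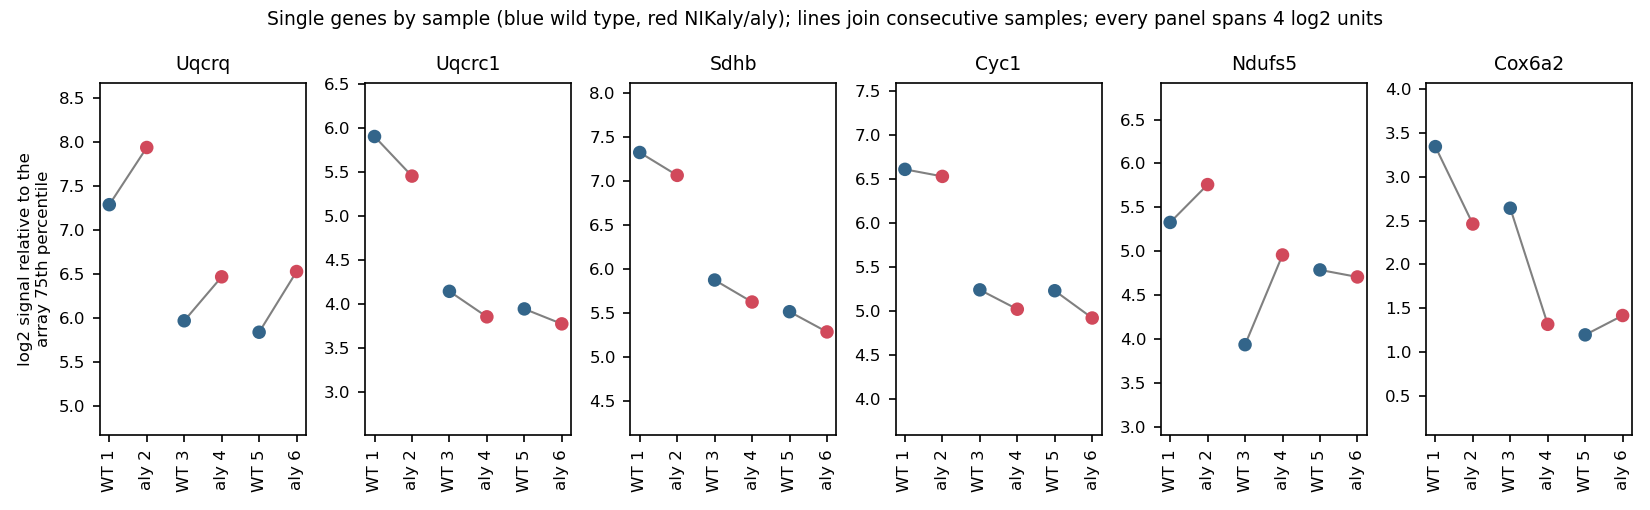
Log2 signal relative to the array's 75th percentile (y axis, 4 log2 units in every panel) of 6 genes in each sample (x axis; blue wild type, red NIKaly/aly; lines join consecutive samples). Uqcrq reads higher in NIKaly/aly along each line (0.65, 0.50 and 0.68), Uqcrc1, Sdhb and Cyc1 read lower along each, and samples 1 and 2 stand above the rest for all but Cox6a2.

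Complex IV, cytochrome c oxidase, has subunits with paired isoforms, 1 found in most tissues and 1 restricted. Of its 18 genes 15 were tested, with a median difference of 0.02, 9 reading higher and 6 lower. The common isoforms differed little: 0.02 ± 0.55 for Cox4i1, -0.10 ± 0.58 for Cox6a1, -0.04 ± 0.54 for Cox6b1, -0.02 ± 0.58 for Cox7a2, 0.17 ± 0.44 for Cox7b and 0.04 ± 0.45 for Cox8a. Cox5a and Cox5b, which are both common, differed by -0.04 ± 0.45 and 0.02 ± 0.55, and Cox7a2l, known from supercomplexes, by 0.05 ± 0.36.

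Among the restricted isoforms, Cox8b, found in muscle, and Cox7b2 and Cox8c, found in testis, were well above background on 0 of 6 arrays. Cox6a2, the muscle form of subunit 6a, was well above background on all 6 and read 3.34, 2.64 and 1.2 in the wild-type samples and 2.46, 1.32 and 1.42 in NIKaly/aly. Wild type 1 was the highest sample, the groups overlapped, and the pairs gave -0.88, -1.32 and 0.23. The difference was -0.66 ± 0.56 (limma, adjusted p = 1; with the block, 95% interval -1.30 to -0.01, adjusted p = 0.672). It was -1.26 without wild type replicate 5, with an unadjusted p under 0.05, and -0.18 without wild type replicate 1. Cox4i2, known from lung, was well above background on 2 of 3 arrays of each genotype and read -1.79, -2.27 and -1.62 in the wild-type samples and -1.95, -2.67 and -3.48 in NIKaly/aly. Its difference of -0.81 ± 0.56 (limma, adjusted p = 1) was -0.42 without NIKaly/aly replicate 6, the lowest sample, and -0.20 with the background-corrected (normexp) signal. Cox6b2, the testis form, differed by 0.10 ± 0.35 and Cox7a1, the heart and muscle form, by 0.06 ± 0.35, and both were well above background on all 6 arrays.

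Complex V, the ATP synthase, had all 15 genes tested, and they lay closest together, from -0.18 to 0.18. The median was 0.01, with 9 reading higher and 6 lower, and 0.15, -0.02 and -0.14 in the 3 pairs. The median level of the 15 genes had a mean difference of -0.13 (within-genotype SD 0.92), the opposite sign. Atp5d, a subunit of the central stalk, differed by -0.18 ± 0.53 and Atp5j, in the peripheral stalk, by 0.18 ± 0.41. The mature ring subunit c has 3 genes: Atp5g1 differed by -0.16 ± 0.61, Atp5g2 by 0.03 ± 0.54 and Atp5g3 by 0.08 ± 0.48. Probes of opposite sign were found for Atp5c1, the gamma subunit of the rotor (-0.32 and 0.01), Atp5f1, now Atp5pb, in the peripheral stalk (-0.02 and 0.09), and the 6 probes of Atp5l, a membrane subunit (-0.08 to 0.21). The files place the probe used for Atp5l and that for Atp5j2 on a chromosome other than the gene's own, so signal from a copy there cannot be told apart.

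The assembly factors and other genes caught by name had a median of -0.01, with 6 of 12 reading higher and 6 lower. Atp5sl, now Dmac2, differed by -0.27 ± 0.40, the complex I assembly factor Ndufaf2 by 0.23 ± 0.38 and Sdhaf2, which helps attach flavin to Sdha, by -0.22 ± 0.43.

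The members differed far more between samples than between genotypes. The median of the 80 tested subunit genes was 6.38, 5.14 and 4.93 in the wild-type samples 1, 3 and 5, and 6.28, 5.17 and 4.85 in samples 2, 4 and 6 of NIKaly/aly mice. Samples 1 and 2, 1 of each genotype, were thus the highest. Over all tested genes the medians ran from 1.24 to 1.47, a range that scaling each array to its own percentile keeps narrow. With scaling to the array median they ran from 4.55 to 5.44. The subunit medians were then 9.68 and 10.2 in samples 1 and 2, against 8.15 to 9.26 in the others. With the percentile scaling, samples 1 and 2 held the 2 highest values of 87 of the 92 members, against 39.8% of all tested genes. This was so for 37 of 37 genes of complex I, 3 of 4 of II, 9 of 9 of III, 13 of 15 of IV and 15 of 15 of V. The exceptions were Sdha, Cox4i2, Cox6a2, Atp5s and Ndufaf5. These samples are not a group of the study, and they were not tested against the others.

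**Figure D3:**
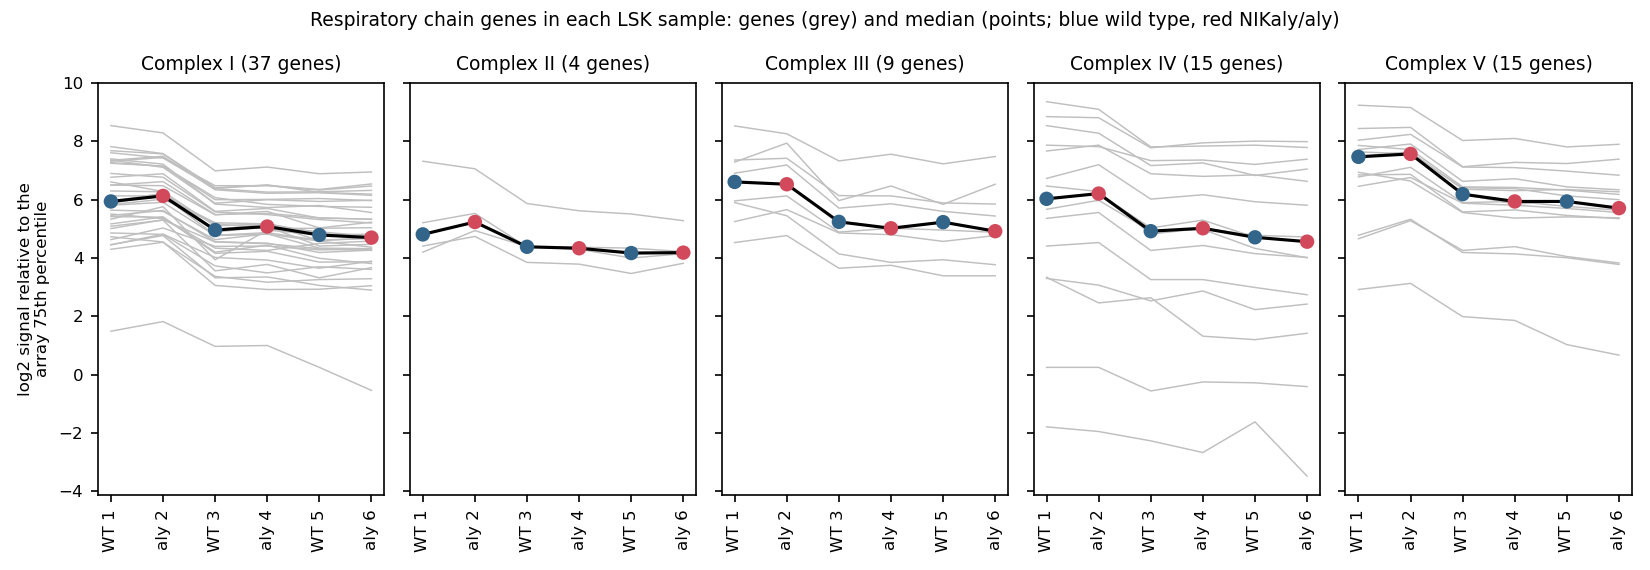
Log2 signal relative to the array's 75th percentile (y axis) of each tested subunit gene (grey lines) and the median of its complex (points; blue wild type, red NIKaly/aly) in each sample (x axis). In complexes I to V the medians of samples 1 and 2 stand above those of the other samples, and neighbouring samples of different genotype lie close together.

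The size of this pattern depended on the scaling. With quantile normalization the subunit medians were 6.09, 5.53 and 5.33 in the wild-type samples and 6.0, 5.61 and 5.30 in NIKaly/aly, and samples 1 and 2 held the highest values for 61 of 80 subunit genes, against 26.7% of all genes. With scaling to the array median the count was 59 of 80 against 20%, and with the normexp signal 57 of 80 against 22.8%. With the 75th percentile taken over probes well above background on all 6 arrays it was 71 of 80 against 20.1%. By complex, quantile normalization left 32 of 37 genes of I, 3 of 4 of II, 6 of 9 of III, 8 of 15 of IV and 12 of 15 of V. Summed marker signal, in units of the 75th percentile, also differed between samples. The 8 tested erythroblast markers summed to 481, 53 and 77.6 in the wild-type samples and 250.3, 54.6 and 83.3 in NIKaly/aly, and the 11 neutrophil markers to 7620, 1141.5 and 3459.5 and to 4403.6, 1247.8 and 4007.9. The B cell sum was 149.6, 38.6 and 44.1 in the wild-type samples and 72.7, 19.8 and 38.4 in NIKaly/aly. All 3 of these sums were highest in samples 1 and 2, as were those of T cell, NK cell and eosinophil, basophil and mast cell markers. A sum follows its brightest marker, which for NK cells was Nkg7 (7.63 in wild type 1 and 7.41 in NIKaly/aly 2). The NK cell median was highest in NIKaly/aly 6 (0.59, against -0.99 in wild type 1 and -0.23 in NIKaly/aly 2). The T cell median was 1.41 in NIKaly/aly 6, against 2.09 in wild type 1 and 1.37 in NIKaly/aly 2. The macrophage and dendritic cell sum was lowest in samples 1 and 2, at 119.2, 173.2 and 214.6 in the wild-type samples and 83.1, 154.6 and 173 in NIKaly/aly. It followed its brightest marker Siglech (6.13, 7.16 and 7.50, and 5.94, 7.08 and 7.27), while Csf1r was highest in wild type 1 (5.29). The median of this list was 1.33, 1.37 and 1.40 in the wild-type samples and 1.11, 0.70 and 0.97 in NIKaly/aly, lowest in sample 4. The LSK sum was 295.1, 285.3 and 266.2 in the wild-type samples and 347.3, 323.1 and 323 in NIKaly/aly, without samples 1 and 2 together at either end. The genotypes did not overlap in this sum, in which Cd34 (difference 0.31 ± 0.35) was the brightest marker. Ly6a differed by -0.68 ± 0.46, and the list medians differed by -0.14 on average. The part of other cell types and of array quality in the pattern was not tested. In a bulk sample, fewer cells of a type and less RNA per cell cannot be told apart.

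Within pairs the members were steady. The median absolute difference between the samples of a pair was 0.14 over members and 0.24 over all tested genes. This was not particular to members: it was 0.15 for subunits named otherwise, 0.16 for assembly factors outside the name rule and 0.17 for citric acid cycle genes. For mitochondrial biogenesis genes and mitochondrially encoded subunits it was 0.29 and 0.33. Across genes, the correlation of consecutive samples was 0.991 to 0.994 over members and 0.975 to 0.989 over all tested genes, and that of samples of 1 genotype 0.982 to 0.993 and 0.937 to 0.975. Genes are not independent replicates, and these values are descriptions.

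Without the block, genes of the same pathway outside the name rule gave 0 calls in limma too, at an adjusted and at an unadjusted p of 0.05. The 13 subunits encoded in mitochondrial DNA had a median difference of 0.13, with 10 reading higher and 3 lower. The pairs differed in sign, with medians of -0.33, 0.26 and 0.33, and with the block 2 of 13, CYTB and ND5, were higher at an unadjusted p under 0.05 (3.26% of all genes were). CYTB, the cytochrome b of complex III, read 8.32, 8.06 and 8.33 in the wild-type samples and 8.72, 8.23 and 8.79 in NIKaly/aly and differed by 0.35 ± 0.37 (limma, adjusted p = 1; with the block, adjusted p = 0.594). ND5, of complex I, differed by 0.39 ± 0.34 (limma, adjusted p = 1; with the block, adjusted p = 0.675). The files place 6 of these 13 probes on chromosome 1 and 7 on the mitochondrial genome, so signal from nuclear copies cannot be told apart.

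Across samples, the order of the mitochondrially encoded subunits depended on the scaling. Their median was 7.52, 6.64 and 7.0 in the wild-type samples and 7.21, 6.74 and 7.20 in NIKaly/aly, and samples 1 and 2 held the highest values for 4 of 13 (30.8%). The medians of samples 1 and 2 were also the highest with scaling to the array median (10.81 and 11.13, against 10.49 to 10.76) and with normexp (6.51 and 6.49, against 5.99 to 6.42), where 6 and 3 of 13 genes had that order. With quantile normalization the median was 7.09, 7.14 and 7.47 in the wild-type samples and 6.85, 7.24 and 7.65 in NIKaly/aly, so samples 1 and 2 were lowest, and 0 of 13 genes had them highest. The median of the nuclear subunits was still highest in samples 1 and 2 under that scaling.

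**Figure D4:**
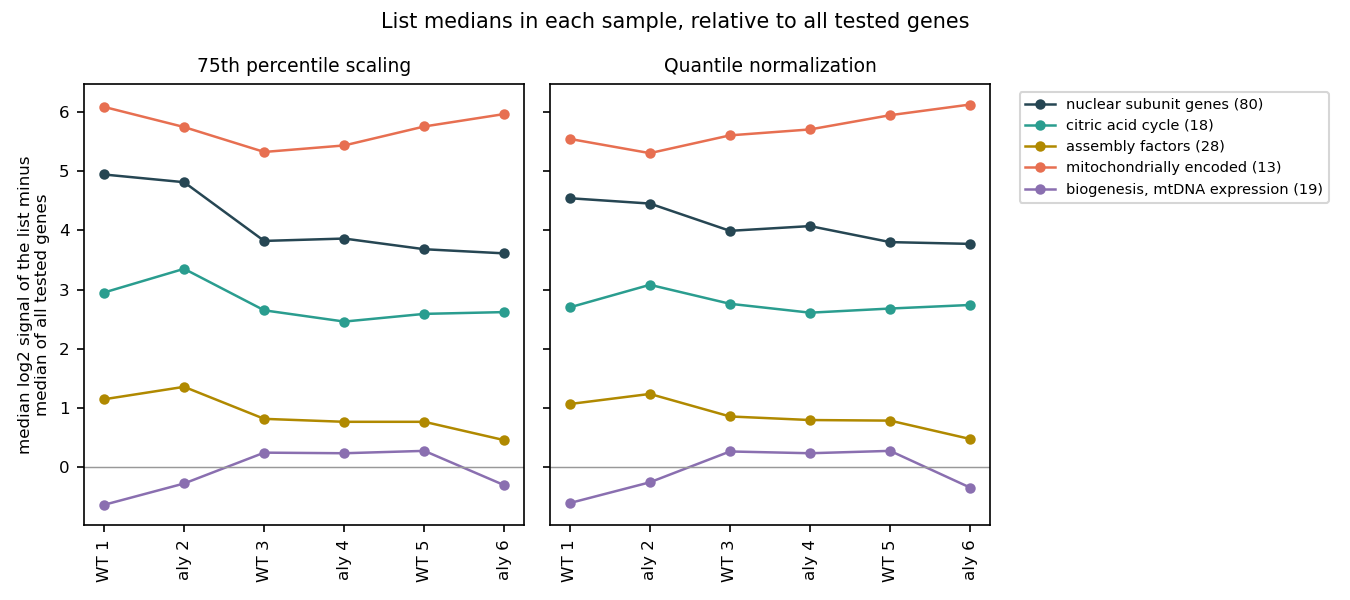
Median log2 signal of each gene list minus that of all tested genes (y axis) in each sample (x axis), with scaling to the 75th percentile (left) and quantile normalization (right); numbers of genes are in the legend. Nuclear subunit genes are highest in samples 1 and 2 in both panels, while mitochondrially encoded subunits are lowest there after quantile normalization.

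Citric acid cycle and pyruvate dehydrogenase genes had a median difference of 0.04 (13 of 18 higher, 5 lower), with Pdha1 at 0.39 ± 0.28 and Suclg2 at 0.51 ± 0.38. Samples 1 and 2 were highest for 13 of 18 of them, and for 4 of 18 after quantile normalization (39.8% and 26.7% of all tested genes). The same counts were 21 and 18 of 28 for assembly factors and chaperones outside the name rule. They were 8 and 6 of 10 for subunits named otherwise, and 9 and 4 of 19 for mitochondrial biogenesis and mitochondrial DNA expression. The 28 tested assembly factors and chaperones outside the name rule had a median of 0.02 (14 higher, 14 lower). Among them Ttc19, needed in complex III, differed by 0.51 ± 0.29 (limma, adjusted p = 1) and Taco1, a translational activator of COX1, by -0.47 ± 0.53. The 10 subunits, carriers and dehydrogenases named otherwise had a median of 0.02 (7 higher, 3 lower), with Etfdh at 0.30 ± 0.29 and Dhodh at -0.33 ± 0.45.

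The 19 tested genes of mitochondrial biogenesis and mitochondrial DNA expression had a median of 0.07 (11 higher, 8 lower). Ppargc1a, the coactivator known to raise respiratory gene expression, read -3.33, -2.56 and -3.76 in the wild-type samples and -2.20, -2.18 and -1.86 in NIKaly/aly. The groups did not overlap, but the probe cleared the background threshold on only 1 wild-type array and 2 NIKaly/aly arrays. The difference was 1.14 ± 0.56 (limma, adjusted p = 1), and 0.14 with normexp. Mterfd3, a mitochondrial termination factor family gene, differed by 0.50 ± 0.40. Nrf1 and Gabpa, which encode NRF-1 and a GABP subunit and were named after their values were seen, differed by -0.16 ± 0.24 and 0.19 ± 0.26.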

How the data were processed

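Scanner files held 1-colour (Cy3) Agilent spot intensities that the authors extracted with Feature Extraction 10.7.3.1. Both this version and the probe positions (mm9) are given per the file headers. The background-subtracted processed signal was used. The deposited series table of ratios was found to be that signal over each array's median on non-control spots, so it stood in as median scaling. Outlier spots were left out, spots of a probe averaged, and log2 signal set against the 75th percentile of non-control spots on the same array. Of 55681 probes, 21217 were tested (15682 genes, the probe with the highest mean for each). limma 3.58.1 in R 4.3.3 (lmFit, eBayes with trend, two-sided, Benjamini-Hochberg over all tested genes) compared genotypes and was tested on simulated data. The simulated differences were larger than that of any member, and the simulated spread was below the median residual SD of 0.5. That run therefore gave no measure of power for the members. No saturated non-control spot was found.

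Sample numbers are not shared between genotypes. Deviations from the genotype mean correlated at 0.74, 0.69 and 0.60 within consecutive samples and at -0.64 to 0.24 otherwise, so consecutive samples served as a block in an alternative fit. Deviations within a genotype cancel out, so the other correlations are lowered where those of consecutive samples are high. That pairing of consecutive samples comes from the data and the order of the sample numbers, not from a statement in the labels.

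The members, lists and tests were chosen with earlier results of these data known. Named genes were the 3 with the smallest p per complex, all Sdh genes, Uqcrfs1, Cyc1, the isoform pairs, up to 6 genes with probes of opposite sign and widest gap, and up to 2 genes per other list. Alternatives were 4 other scalings or background corrections, 2 other filters, other probe rules, slide row and consecutive samples as blocks, array weights and left-out samples. Exon and UTR positions of probes were not analysed here. Beyond choosing a gene's probe, naming the brighter probe or marker, and list sums, medians and correlations, levels of different probes were not compared.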

Additional observations from a re-analysis of the deposited data

How the results depend on the processing

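The count of all genes called by limma, 0 as reported, was 10 with scaling to the array median, 1 with normexp, 2 without a filter on dim probes, 2 with consecutive samples as a block and 5 with array weights, and 0 to 1 with 1 sample left out (1 without wild type replicate 3). None of them was a member. The count of members at an unadjusted p under 0.05, 0 as reported, was 1 with quantile normalization (Uqcrq), 3 with the block, 2 with array weights (Cox6a2 and Ndufs5), 1 without samples 1 and 2 (Uqcrq), and 0 to 1 with 1 sample left out (Cox6a2 without wild type replicate 5). Under each alternative, median differences of complexes I to V moved by less than the within-genotype SD of the sample medians (0.46 to 0.92). They could change sign within a limit this wide. With 1 sample left out they ran from -0.40 to 0.40, -0.23 to 0.33, -0.32 to 0.45, -0.36 to 0.39 and -0.41 to 0.38, positive without wild type 1 and negative without NIKaly/aly 2. Scaling to the array median moved the median of all genes from -0.01 to 0.09. No paired analysis by replicate number was possible because the genotypes share no sample number. Of the 50 named genes tested, 0 were called under any alternative, and 21 changed sign without NIKaly/aly replicate 2.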
